A study of Mus musculus with 4 samples.

Results

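The response to TNF that runs across lymphoid and myeloid cells of the TRIF-KO spleen was described from a pair of droplet-based single-cell RNA libraries of spleen cells, TRIF-KO PBS and TRIF-KO TNF. Members were the barcodes of these libraries with 200 genes or more and no more than 10% of UMIs from mitochondrial genes. They numbered 12720 of the 20476 barcodes that met these limits in all 4 libraries of the study, 5659 in TRIF-KO PBS and 7061 in TRIF-KO TNF. A UMI is a molecular tag that counts 1 captured RNA molecule.

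All mice were 10 weeks old and of the C57BL/6 strain, wild-type or, for the TRIF-KO groups, on that background and lacking TRIF by their label, with no allele named. Each mouse received, by vein, 9 µg of recombinant murine TNF in 100 µl, or PBS, and the spleen was taken after 4 h. Erythrocytes were lysed and dead cells depleted before sequencing. Each of the 4 groups is 1 library, and the number of animals behind a library is not given, so no difference here has a replicate check and no p-value is given.

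TNF is a cytokine that binds TNFR1 and TNFR2 on most nucleated cells. TNFR1 activates the kinase complex that degrades IκB, which frees NF-κB to enter the nucleus and to induce both inflammatory genes and its own inhibitors. TRIF, the product of Ticam1, is an adaptor through which TLR3 and TLR4 activate NF-κB and the interferon-regulatory factors, though not the only adaptor of TLR4. Systemic TNF also sets off secondary mediators, among them cytokines that signal through STAT proteins and adrenal glucocorticoids, so a change in a spleen cell after some hours can be direct or indirect.

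Ticam1, the targeted gene, was too low to be measured in any lineage. Over the whole spleen it stood at 8.32 CPM (UMIs per 1e+06 UMIs) in TRIF-KO PBS and 5.77 in TRIF-KO TNF, beside 6.64 in wild-type PBS and 3.90 in wild-type TNF. The levels in the libraries labelled TRIF-KO were therefore not below those of the wild-type libraries. Reads of this method come from 1 end of the transcript and the deleted part of the gene is not given, so these UMIs do not check the label.

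Barcodes were gated on marker genes into 6 lineages with at least 50 barcodes in each TRIF-KO library, named here by their markers. The lymphoid lineages were B-like (3029 barcodes with PBS and 3153 with TNF), T-like (1286 and 1335) and NK-like (134 and 77). The myeloid lineages were neutrophil-like (100 with PBS, 296 with TNF), monocyte/macrophage-like (207 with PBS, 258 with TNF) and dendritic-like (71 with either). Every marker of a lineage was detected in its own gate in both libraries. Neutrophil-like barcodes made up 1.77% of the PBS library (exact 95% interval 1.44 to 2.15%) and 4.19% of the TNF library (3.74 to 4.69%). NK-like barcodes made up 2.37% (1.99 to 2.80%) and 1.09% (0.862 to 1.36%).

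The TNF library was the deeper, with a median of 7351 UMIs per barcode against 4499 with PBS. The direction held in each lineage except monocyte/macrophage-like cells, where the median was 5825 UMIs with PBS and 2281.5 with TNF. The 2 libraries shared 11 barcodes. In the gates, the 10 neutrophil markers summed to 14.6 CPM in B-like cells with PBS and to 241 CPM with TNF, and to 11.6 and 163 CPM in T-like cells. Free RNA in droplets can carry such markers into cells that do not express them, so a gene under 5% of its highest level in another gated class was left out of the calls.

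UMIs were summed per library and lineage and expressed as CPM. A gene was measured in a lineage with at least 50 UMIs over both libraries and 50 CPM in at least 1 of them. It was called higher or lower with TNF when the ratio was at least 2-fold and its exact 95% interval left out 1. That interval covers counting error only, not the spread between animals.

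Few genes passed this rule in B-like and T-like cells, and many in the myeloid lineages. In B-like cells 31 of 2769 tested genes (1.12%) were called higher and 11 (0.397%) lower. T-like cells had 37 of 2488 (1.49%) higher and 17 (0.683%) lower. NK-like cells had 115 of 3290 (3.5%) higher and 199 (6.05%) lower. The NK-like split turned with the scaling, to 159 higher and 143 lower with median-of-ratios size factors.

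Neutrophil-like cells had 221 of 2632 genes (8.4%) higher and 709 (26.9%) lower. The median log2 ratio of all genes was -0.50 there, and with median-of-ratios scaling the counts became 388 higher and 306 lower. Monocyte/macrophage-like cells had 455 of 3533 (12.9%) higher and 385 (10.9%) lower, and dendritic-like cells 268 of 3030 (8.84%) and 202 (6.67%). The monocyte/macrophage-like split was 414 higher and 610 lower when mitochondrial, ribosomal, haemoglobin and immunoglobulin genes were left out of the total. The dendritic-like split turned with clusters in place of gates, to 139 higher and 264 lower.

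**Figure D1:**
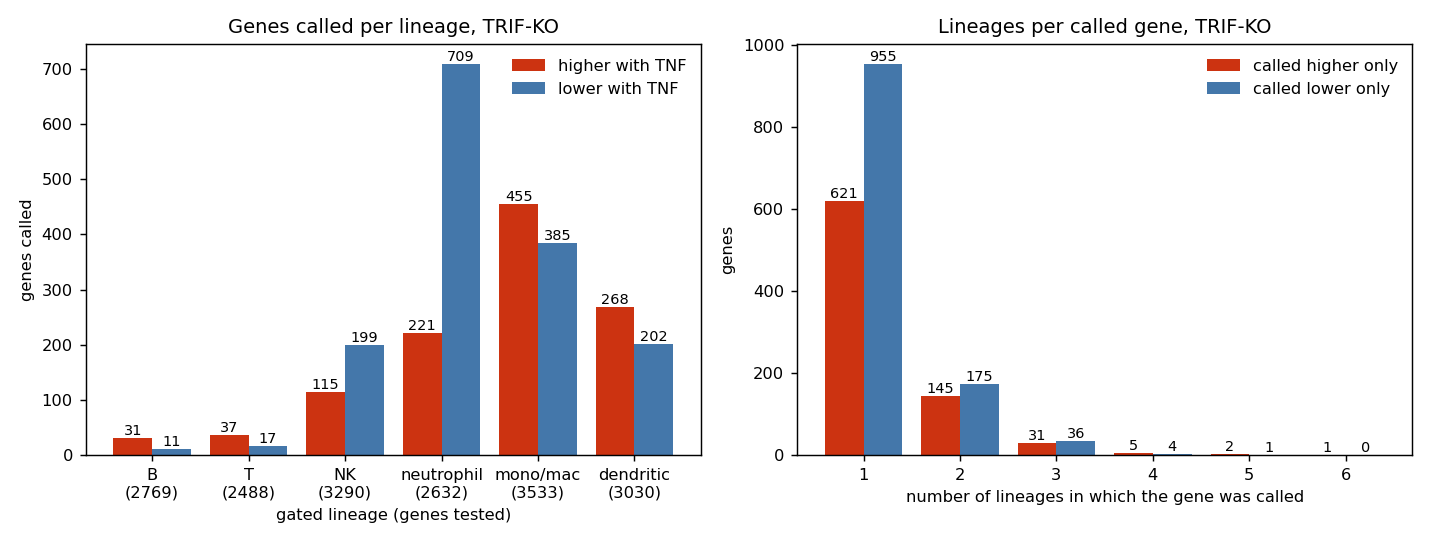
Left, genes called at least 2-fold higher (red) or lower (blue) with TNF in each gated lineage of the TRIF-KO pair, with the genes tested in parentheses; right, genes called in 1 direction only, by the number of lineages in which they were called. Most called genes were called in 1 lineage, and 1 gene was called higher in all 6.

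Most called genes were called in 1 lineage, and many of them could not be called elsewhere because they were measured in few lineages. Of the genes called only higher, 621 were called in 1 lineage, 145 in 2, 31 in 3, 5 in 4, 2 in 5 and 1 in 6. Of those called only lower, 955 were called in 1 lineage, 175 in 2, 36 in 3, 4 in 4, 1 in 5 and 0 in 6. Among genes measured in both lineages of a pair, calls coincided in part. Of the T-like higher genes, 11 of 20 measured in NK-like cells were called higher there too (3.77% of the genes measured in both), 10 of 22 in neutrophil-like cells (3.1%) and 11 of 23 in monocyte/macrophage-like cells (8.75%). Read from the other side, these were 11 of 86 NK-like, 10 of 44 neutrophil-like and 11 of 177 monocyte/macrophage-like higher genes.

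A gene was taken as shared when it was called the same way in at least 2 of the 3 lymphoid and 2 of the 3 myeloid lineages and the opposite way in none. Of the 2115 genes measured in enough lineages, 6 were shared higher (0.284%) and 1 was shared lower (0.0473%). The lineages come from the same pair of libraries, so a call in several of them is no replication.

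The 6 shared higher genes were Nfkbia, Tnfaip3, Relb, Socs3, Fkbp5 and Sdhaf1, and the shared lower gene was Mir142hg. Nfkbia encodes IκBα, the inhibitor that holds NF-κB in the cytoplasm and is itself an NF-κB target. Tnfaip3 encodes A20, a ubiquitin-editing enzyme that ends signalling from TNFR1 and the Toll-like receptors. Relb encodes the NF-κB subunit of the non-canonical pathway. Socs3 encodes a feedback inhibitor of cytokine receptors that signal through STAT3. Fkbp5 encodes a co-chaperone of the glucocorticoid receptor and is a classical glucocorticoid-induced gene. Sdhaf1 encodes an assembly factor of mitochondrial succinate dehydrogenase, and Mir142hg is the host transcript of miR-142, a microRNA of blood cells.

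Sequence before a RefSeq start is shown for 4 of these genes because Nfkbia, Tnfaip3, Socs3 and Fkbp5 stand for the 3 regulatory pathways named above. The 250 bases before a start of transcription came from RefSeq (build GRCm38.p6), where 5 of the 7 shared genes had an entry. By the GENCODE gene spans given below, only the Nfkbia window lies before its gene. The Fkbp5 window and the printed Socs3 and Tnfaip3 stretches lie inside minus-strand spans that begin at 28517527, 117970047 and 19015657. All 250 bases of the Sdhaf1 window are annotated exon, as are 77 for Socs3 and 110 for Tnfaip3. Searched on both strands were motifs of NF-κB (GGG, 3 free bases, T, 1 free base, CC), STAT (TTC, 3 free bases, GAA), interferon response (GAAA, 2 free bases, GAAA) and the glucocorticoid receptor (AGAACA, 3 free bases, TGT). All 4 printed stretches are on the minus strand, read 5′ to 3′ towards the gene, with annotated exon bases left out and motif matches in capitals. They are chr12:55492648-55492897 for Nfkbia, chr10:19015411-19015547 for Tnfaip3, chr11:117969452-117969616 for Socs3 and chr17:28486150-28486399 for Fkbp5.
Nfkbia: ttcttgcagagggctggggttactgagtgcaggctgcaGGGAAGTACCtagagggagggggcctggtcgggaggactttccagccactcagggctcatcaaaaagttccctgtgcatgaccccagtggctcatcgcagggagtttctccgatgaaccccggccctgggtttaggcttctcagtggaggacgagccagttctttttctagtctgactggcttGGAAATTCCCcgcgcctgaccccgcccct
Tnfaip3: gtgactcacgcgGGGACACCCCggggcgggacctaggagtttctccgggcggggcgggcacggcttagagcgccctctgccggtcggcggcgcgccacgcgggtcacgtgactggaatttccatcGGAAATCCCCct
Socs3: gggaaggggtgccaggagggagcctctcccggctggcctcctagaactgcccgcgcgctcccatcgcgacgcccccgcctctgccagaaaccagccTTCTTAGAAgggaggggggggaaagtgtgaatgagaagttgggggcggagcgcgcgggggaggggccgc
Fkbp5: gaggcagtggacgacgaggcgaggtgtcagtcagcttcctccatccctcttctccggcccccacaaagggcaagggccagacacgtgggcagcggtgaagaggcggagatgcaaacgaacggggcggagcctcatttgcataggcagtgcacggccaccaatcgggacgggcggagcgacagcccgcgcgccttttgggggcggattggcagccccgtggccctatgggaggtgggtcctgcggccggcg
The NF-κB motif was found at 2 of the 5 genes, Nfkbia and Tnfaip3, with 2 matches in each stretch printed, and in 14.7% of 27025 promoters of this length. RefSeq gives Tnfaip3 another start, whose window (chr10:19011964-19012213, not printed) holds 1 further match. The STAT motif was found in 1 of the 5, Socs3, and in 7.18% of all. It reads the same on both strands, so the Socs3 match is a single place. The interferon motif (3.04% of all promoters) and the glucocorticoid receptor motif (0.348%) matched in 0 of the 5. A match is a run of letters, not a bound site, and no match says only that the letters are not in this window.

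Nfkbia (chromosome 12, 55489410 to 55492647, minus strand) separated B-like cells from the rest. Its summed level in B-like cells was 262 CPM with PBS and 261 with TNF. In T-like cells it was 169 and 356 CPM, and in NK-like cells 87.9 and 344 CPM. The TNF library was thus the higher in T-like and NK-like cells, by 2.11-fold (95% interval 1.99 to 2.25) and 3.92-fold (2.82 to 5.55), and level in B-like cells.
In the myeloid lineages Nfkbia was at 319 CPM with PBS and 1459 with TNF in neutrophil-like cells, 304 and 839 in monocyte/macrophage-like cells, and 394 and 722 in dendritic-like cells. The ratio in dendritic-like cells, 1.83-fold (1.55 to 2.16), stayed under the 2-fold limit.

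Tnfaip3 (chromosome 10, 19000910 to 19015657, minus strand) was called higher in 5 lineages and not measured in B-like cells, where it stood at 17.9 CPM with PBS and 12.2 with TNF. It went from 19.3 to 52.5 CPM in T-like cells and from 15.6 to 87.8 in NK-like cells. In neutrophil-like, monocyte/macrophage-like and dendritic-like cells it was at 19.7, 24.7 and 39.4 CPM with PBS, and at 76.0, 113 and 86.0 CPM with TNF. The folds ran from 2.18 (1.31 to 3.80) in dendritic-like cells to 5.62 (2.64 to 13.7) in NK-like cells, and these 2 intervals overlapped.

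Relb (chromosome 7, 19606217 to 19629438, minus strand) was also called higher in every lineage except B-like cells. Its level in B-like cells was 49.8 CPM with PBS and 61.7 with TNF, 1.24-fold (1.13 to 1.36). It was at 24.0 and 53.7 CPM in T-like cells, 29.3 and 108 in NK-like cells, and 33.7 and 131 in monocyte/macrophage-like cells. Dendritic-like cells were the highest with either injection, at 231 and 556 CPM. In neutrophil-like cells 3 UMIs with PBS and 284 with TNF gave 9.86 and 112 CPM, a ratio of 11.4 with an interval of 3.85 to 55.4.

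Socs3 (chromosome 11, 117966079 to 117970047, minus strand) had the opposite placing among lymphoid cells, with the largest lymphoid ratio in B-like cells. There it was at 4.74 CPM with PBS and 61.9 with TNF, 13.1-fold (10.2 to 17.0). T-like cells had 40.7 and 225 CPM, 5.53-fold (4.94 to 6.21), and monocyte/macrophage-like cells 33.7 and 225 CPM, 6.67-fold (4.83 to 9.43). Neutrophil-like cells already had 319 CPM with PBS and had 341 with TNF, a ratio of 1.07 (0.866 to 1.33). In dendritic-like cells 1 UMI with PBS and 88 with TNF gave 1.97 and 113 CPM, a ratio of 57.3 with an interval of 10.0 to 2289. In NK-like cells, at 17.6 and 25.1 CPM, it was not measured.

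Fkbp5 (chromosome 17, 28399094 to 28517527, minus strand) was the only gene of the 1166 measured in all 6 lineages that was called the same way in each (0.0858%). Its PBS levels were 15.3 CPM in B-like, 24.6 in T-like, 52.7 in NK-like, 32.9 in neutrophil-like, 27.9 in monocyte/macrophage-like and 9.86 in dendritic-like cells. With TNF they were 141, 139, 122, 159, 194 and 119 CPM in the same order. The TNF levels lay in a narrow range, and each was above the highest PBS level. The folds were 9.22 (8.01 to 10.7), 5.65 (4.88 to 6.56), 2.31 (1.46 to 3.76), 4.83 (2.60 to 10.2), 6.93 (4.87 to 10.2) and 12.1 (5.01 to 38.2). Fkbp5 stayed shared under each alternative processing that made calls.

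Sdhaf1 (chromosome 7, 30321406 to 30323895, minus strand) was called higher in T-like, NK-like, monocyte/macrophage-like and dendritic-like cells. It was at 31.0 and 85.6 CPM in T-like, 29.3 and 87.8 in NK-like, 40.3 and 127 in monocyte/macrophage-like, and 51.3 and 164 in dendritic-like cells. The 4 ratios lay between 2.76 and 3.21. B-like cells had 39.6 and 60.3 CPM, 1.52-fold (1.38 to 1.69), and in neutrophil-like cells, at 3.29 and 6.70 CPM, the gene was not measured. The gene overlaps E130208F15Rik on the opposite strand, and no source used here states whether the counting used strand, so UMIs of the pair may not be told apart.

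Mir142hg (chromosome 11, 87755577 to 87757270, plus strand), a lincRNA in the annotation, was lower with TNF in every lineage. It was at 196 CPM with PBS and 85.0 with TNF in B-like cells. T-like cells had 123 and 54.6 CPM, and NK-like cells 301 and 122 CPM. It was at 122 and 58.3 CPM in neutrophil-like, 62.5 and 25.8 in monocyte/macrophage-like, and 128 and 74.5 in dendritic-like cells. The ratios lay between 0.405 in NK-like and 0.581 in dendritic-like cells, the only lineage without a call. It was not shared lower with median-of-ratios scaling, with the top barcode of each gene left out, or with each barcode weighted equally.

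**Figure D2:**
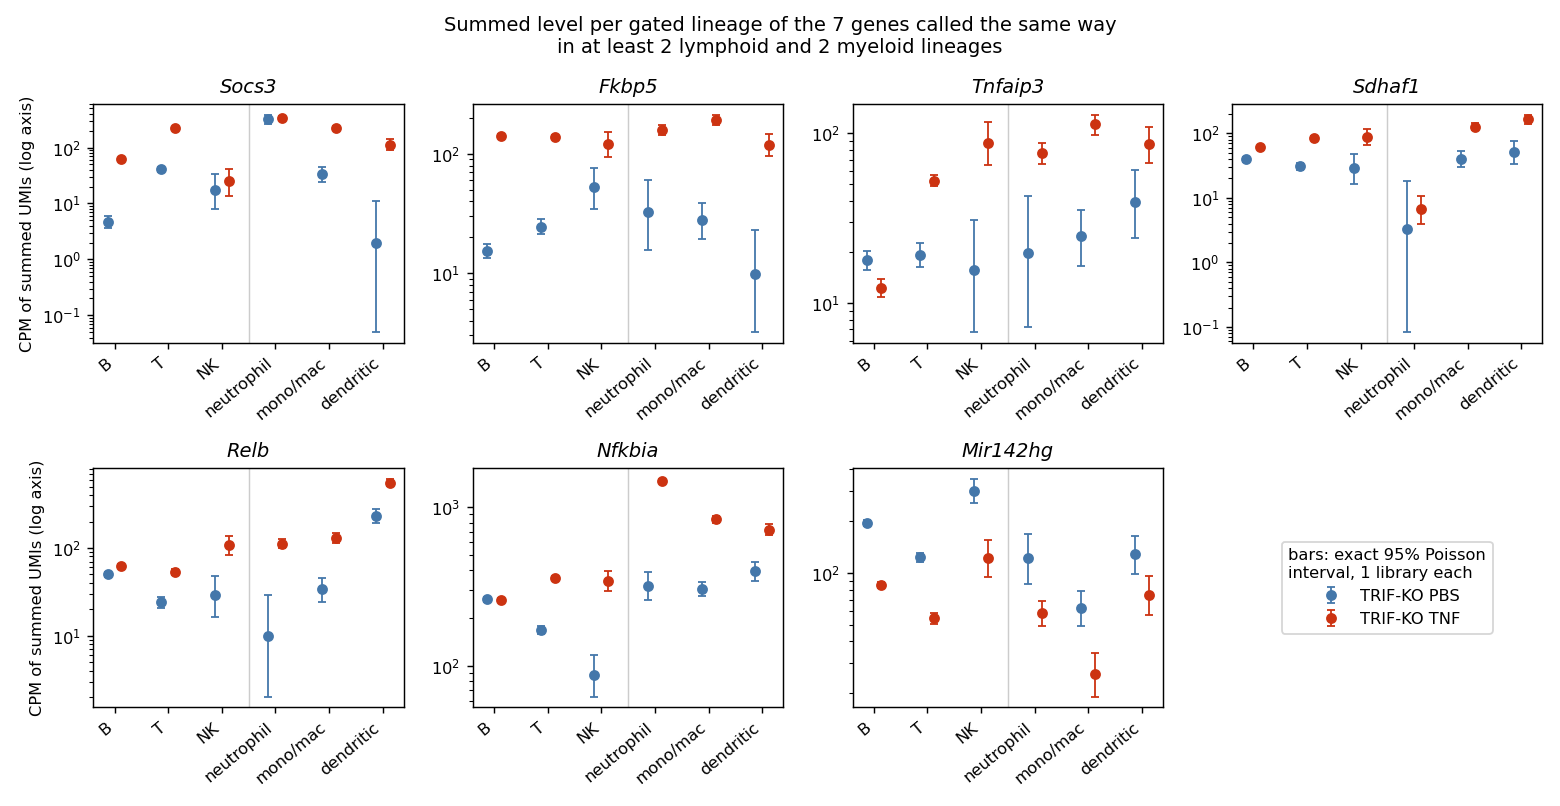
Summed level of the 7 shared genes in each gated lineage (CPM, log axis; TRIF-KO PBS blue, TRIF-KO TNF red, 1 library each; bars are exact 95% Poisson intervals, counting error only; the grey line parts lymphoid from myeloid lineages). Fkbp5 with TNF sits between 119 and 194 CPM in all 6 lineages, while Nfkbia is level in B-like cells and Socs3 in neutrophil-like cells.

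Over the whole spleen, 91 of 2568 genes (3.54%) were called higher and 46 (1.79%) lower, and only 3 of the 7 shared genes were among them. These were Fkbp5 (17.6 and 102 CPM), Socs3 (18.9 and 101 CPM) and Mir142hg (137 and 50.3 CPM). Nfkbia (196 and 312 CPM), Relb (38.8 and 58.4 CPM), Tnfaip3 (16.5 and 28.3 CPM) and Sdhaf1 (31.3 and 52.0 CPM) were at most 1.71-fold higher. In such a pooled value the share of each cell type and its RNA per cell cannot be told apart from its level per cell: erythroid-like barcodes made up 5.85% of the PBS and 15.3% of the TNF library.

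The wild-type pair shares no library with the TRIF-KO pair and was compared in 5 lineages, since wild-type PBS had 44 dendritic-like barcodes. The shared higher genes that were called in TRIF-KO and measured in wild-type were called higher in wild-type T-like cells in 6 of 6 cases, where 3.47% of all genes were called higher. The same held for 2 of 2 in B-like cells (1.28% of genes), 4 of 5 in NK-like (3.84%), 4 of 4 in neutrophil-like (8.71%) and 5 of 6 in monocyte/macrophage-like cells (11.2%). Both exceptions were Fkbp5. Mir142hg was called lower in wild-type NK-like and neutrophil-like cells, where 12% and 28.6% of genes were. Its log2 ratio in wild-type B-like, T-like and monocyte/macrophage-like cells, where 1.83%, 4.65% and 19% were called lower, ran from -0.73 to -0.54.

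Sizes differed between the genotypes for several of these genes. The log2 ratio of Fkbp5 was larger in the TRIF-KO pair by 0.66 (0.37 to 0.94) in B-like, 1.24 (0.91 to 1.58) in T-like, 1.76 (0.77 to 2.75) in NK-like, and 2.11 in monocyte/macrophage-like cells, with intervals that leave out 0. In neutrophil-like cells the difference was 0.90, with an interval that holds 0. In the wild-type pair Fkbp5 went from 127 to 201 CPM in monocyte/macrophage-like and from 96.9 to 64.6 CPM in NK-like cells. Its PBS level in wild-type monocyte/macrophage-like cells was therefore above the 27.9 CPM of TRIF-KO, while the TNF levels were close.

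Tnfaip3 went the other way in myeloid cells. The TRIF-KO log2 ratio was smaller than the wild-type one by 2.22 in neutrophil-like cells (-2.22, interval -3.55 to -0.90) and by 1.97 in monocyte/macrophage-like cells (-1.97, -2.80 to -1.14). Wild-type neutrophil-like cells went from 23.7 to 404 CPM, and monocyte/macrophage-like cells from 18.4 to 331 CPM, so PBS levels were alike and TNF levels were not.
Nfkbia was smaller in TRIF-KO by 0.84 (-0.84, -1.07 to -0.61) in monocyte/macrophage-like and by 0.56 (-0.56, -0.70 to -0.42) in T-like cells. Sdhaf1 differed by -0.73 (-1.07 to -0.40) in T-like and -1.86 (-3.30 to -0.43) in NK-like cells. Socs3 in neutrophil-like cells was at 535 CPM with PBS and 257 with TNF in wild-type, a log2 ratio of -1.06 against 0.10 in TRIF-KO. With 1 library per group these intervals hold counting error alone, and genotype and library cannot be told apart.

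**Figure D3:**
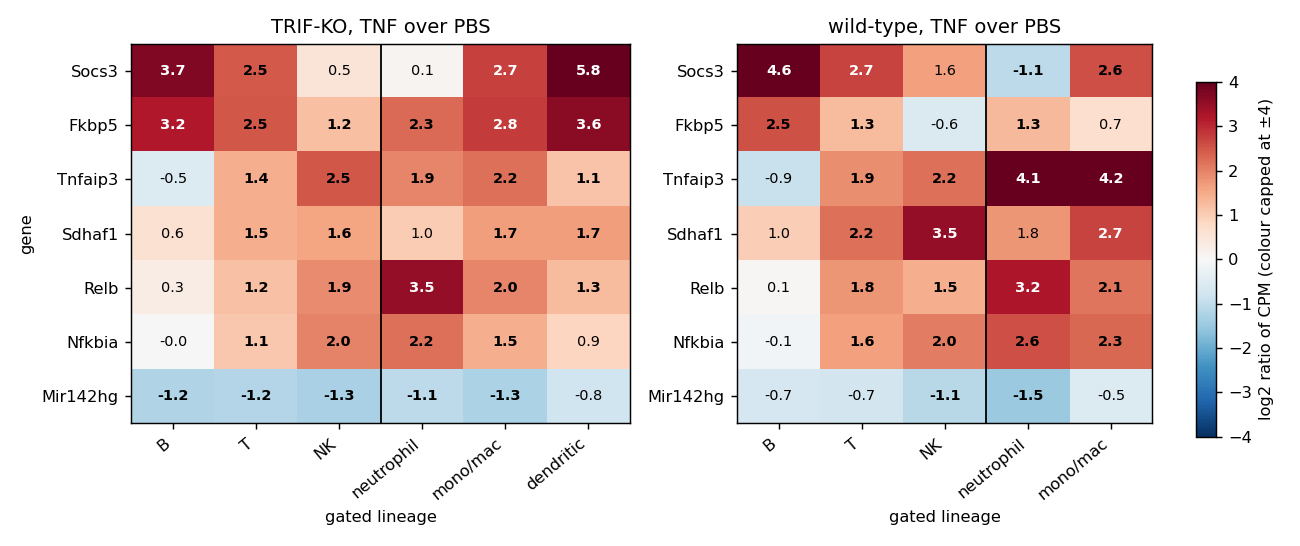
Log2 ratio of CPM, TNF over PBS, of the 7 shared genes (rows) in the gated lineages (columns) of the TRIF-KO pair (left) and the wild-type pair (right), 1 library per group; bold numbers are called, and colour is capped at 4 either way. Tnfaip3 in the 2 wild-type myeloid lineages stands above TRIF-KO, and Fkbp5 in TRIF-KO stands above wild-type in every lineage compared.

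A looser rule, a call the same way in at least 1 lymphoid and 1 myeloid lineage and in none the opposite way, gave 61 of 3072 genes higher (1.99%) and 60 lower (1.95%). Of the 61, 33 were called in 2 lineages, 20 in 3 and 8 in 4 or more, and 45 had the same sign in every lineage where they were measured. NK-like and monocyte/macrophage-like cells each gave a call for 45 of them, T-like cells for 19 and B-like cells for 10. Of the 60 lower genes, 57 were called in NK-like cells, 31 in neutrophil-like, 5 in T-like and 2 in B-like cells. Within the lymphoid and within the myeloid side, these counts had the order of each lineage's calls over all genes. Between the sides they did not. NK-like cells had 115 higher and 199 lower calls in all. Neutrophil-like cells had 221 and 709, and gave 19 of the 61 higher genes.

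Just outside the limit, 22 genes were higher and 15 lower with 1 further lineage missing, 16 and 13 of them on the lymphoid side. Among the 22 were further NF-κB genes: Tnip1, which encodes a partner of A20, Traf1, an adaptor of TNF receptors, and Nfkb2, the partner of RelB, all 3 called in NK-like, neutrophil-like and monocyte/macrophage-like cells. Birc3, a ubiquitin ligase of the TNFR1 complex, was called in T-like, NK-like and neutrophil-like cells. Zbp1, a nucleic-acid sensor of necroptosis, was called in B-like, T-like and neutrophil-like cells. Vim (vimentin), Mxd4 (a MYC antagonist) and Tm6sf1 were called lower in NK-like cells and all 3 myeloid lineages.

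The list of 25 NF-κB targets and feedback inhibitors had calls in every lineage except B-like cells. Its called members were all higher: 0 of 13 measured in B-like, 5 of 12 in T-like, 8 of 15 in NK-like, 13 of 20 in neutrophil-like, 14 of 23 in monocyte/macrophage-like and 8 of 21 in dendritic-like cells. Among all genes, 1.12%, 1.49%, 3.5%, 8.4%, 12.9% and 8.84% were called higher in the same order. The list's median log2 ratio stood above that of all genes by 0.32 in T-like, 1.13 in NK-like, 2.09 in neutrophil-like, 1.33 in monocyte/macrophage-like and 0.76 in dendritic-like cells, and by 0.00 in B-like cells. Over all lineages 18 of its 23 measured members were called higher somewhere and 0 lower. The list holds 3 of the shared genes, which were known when it was written.

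Myeloid members of that list had the largest ratios. Sod2, the mitochondrial superoxide dismutase, was at 55.9 CPM with PBS and 1041 with TNF in neutrophil-like cells, and at 83.0 and 2115 in monocyte/macrophage-like cells. Ehd1, an endosome-recycling protein, was at 47.7 and 806 CPM in monocyte/macrophage-like cells, 16.9-fold. Bcl2a1b, a survival factor of the BCL2 family, was at 75.6 and 1403 CPM there and was also called in NK-like, neutrophil-like and dendritic-like cells. Ikbke, a kinase related to TBK1, was at 10.7 and 141 CPM in monocyte/macrophage-like cells and level in T-like cells (50.8 and 47.3 CPM). None of these 4 genes was called in B-like or T-like cells, but Sod2 was measured in the 3 myeloid lineages only and could not be called there.

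The SOCS and JAK-STAT list had calls in each lineage: 3 of 6 measured members higher in B-like, 2 of 9 in T-like, 3 of 7 in NK-like, 1 of 8 in neutrophil-like, 3 of 9 in monocyte/macrophage-like and 5 of 11 in dendritic-like cells. Among all genes, 1.12%, 1.49%, 3.5%, 8.4%, 12.9% and 8.84% were called higher in the same order, so the neutrophil-like count was near that share. Neutrophil-like and monocyte/macrophage-like cells each had 1 lower, the repressor gene Bcl6, beside 26.9% and 10.9% of all genes. The members differed by lineage. Socs1, an inhibitor of interferon signalling, was called in T-like (49.4 and 102 CPM) and NK-like cells (41.0 and 188 CPM), and Socs2 in dendritic-like cells (51.3 and 200 CPM). Ptpn1, a phosphatase that acts on JAK kinases, was called in B-like cells and all 3 myeloid lineages.

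Of the glucocorticoid-responsive list, 2 of 4 measured members were called higher in B-like, 1 of 5 in T-like, 1 of 5 in NK-like, 5 of 8 in neutrophil-like, 5 of 9 in monocyte/macrophage-like and 5 of 7 in dendritic-like cells. The list median stood above all genes by 0.63 to 2.12 in the 6 lineages. Among all genes, 1.12%, 1.49%, 3.5%, 8.4%, 12.9% and 8.84% were called higher in these lineages. Members did not move as one, with 3, 2 and 1 lower in the myeloid lineages in the same order. Beside these stood 26.9%, 10.9% and 6.67% of all genes, so the 3 of 8 in neutrophil-like cells were near the share there. Txnip, a thioredoxin inhibitor, was called lower in the 3 myeloid lineages, and Tsc22d3 (GILZ), also a classical glucocorticoid target, was called lower in neutrophil-like and monocyte/macrophage-like cells. Outside Fkbp5, Ddit4 was called higher in B-like and dendritic-like cells, and Mt1, a metallothionein, in monocyte/macrophage-like (53.4 to 559 CPM) and dendritic-like cells (13.8 to 399 CPM). In T-like and NK-like cells Fkbp5 was the only call.

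Type I interferon-stimulated genes were called higher in 1 of 10 in B-like, 3 of 14 in T-like and 1 of 8 in NK-like cells. Of all genes, 1.12%, 1.49% and 3.5% were called higher there. Neutrophil-like cells had 3 higher and 4 lower of 16, beside 8.4% and 26.9% of all genes. Monocyte/macrophage-like cells had 2 and 2 of 20, beside 12.9% and 10.9%. Dendritic-like cells had 1 and 1 of 12, beside 8.84% and 6.67%. Interferon-gamma GTPases and antigen-processing genes were called higher in 2 of 19 in T-like, 6 of 17 in NK-like and 4 of 16 in monocyte/macrophage-like cells, and in 0 of 13 in B-like cells. In neutrophil-like cells 2 were higher and 2 lower of 12, beside 8.4% and 26.9% of all genes. In dendritic-like cells 1 was higher and 1 lower of 17, beside 8.84% and 6.67%. Gbp2, a guanylate-binding protein, was called in T-like (36.3 and 126 CPM), neutrophil-like (42.7 and 161 CPM) and monocyte/macrophage-like cells (30.4 and 112 CPM).

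Other lists were called on the myeloid side. Inflammatory cytokines and effectors had 0 measured members in the 3 lymphoid lineages, 8 higher and 2 lower of 10 in neutrophil-like, 7 of 7 higher in monocyte/macrophage-like and 3 of 3 higher in dendritic-like cells. Saa3, an acute-phase protein, had 3 UMIs with PBS and 11342 with TNF in monocyte/macrophage-like cells, 2.47 and 5969 CPM, a ratio of 2420 with an interval of 828 to 11739. Cd14, the co-receptor of TLR4, went from 115 to 1676 CPM in neutrophil-like and from 48.5 to 553 CPM in monocyte/macrophage-like cells. Il1rn, the interleukin-1 receptor antagonist, was called in all 3 myeloid lineages, at 10.7 and 384 CPM in monocyte/macrophage-like cells and at 0 and 54 UMIs in dendritic-like cells, at least 11.7-fold higher.
The metallothionein and antioxidant list had 5 of 10, 7 of 13 and 4 of 10 members higher in the myeloid lineages, with 1 lower in monocyte/macrophage-like cells. It had 0 calls among the 6, 4 and 6 members measured in B-like, T-like and NK-like cells, where at most 3.5% of all genes were called higher. Hmox1, haem oxygenase, was at 935 and 2882 CPM in monocyte/macrophage-like cells. Of those barcodes, 20 of 207 with PBS and 85 of 258 with TNF held over 1% haemoglobin UMIs, and their part in this value was not tested.

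Polyamine and translation genes formed a pattern that ran over NK-like and monocyte/macrophage-like cells. Of 20 measured members, 8 were called higher in NK-like, 12 in monocyte/macrophage-like, 2 in dendritic-like, 1 in T-like and 0 in B-like cells. Among all genes, 3.5%, 12.9%, 8.84%, 1.49% and 1.12% were called higher in the same order. In neutrophil-like cells 2 of 7 were lower, beside 26.9% of all genes. Ncl (nucleolin) went from 436 to 930 CPM in NK-like and from 233 to 620 CPM in monocyte/macrophage-like cells, and lower in neutrophil-like cells (131 and 58.3 CPM). The neutrophil-like log2 ratio of Ncl was -1.17, where the median of all genes was -0.50, and became -0.10 with clusters in place of gates. In the monocyte/macrophage-like gate 5 TNF barcodes held at least 5 UMIs of the progenitor genes Mpo, Elane and Prtn3, against 0 with PBS. Without them Nolc1, a nucleolar protein, went from a log2 ratio of 1.63 to 0.96 in that gate, and with each barcode weighted equally to 0.47.

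AP-1 and immediate-early genes were called higher in 4 of 14 in B-like cells, 0 of 11 in T-like cells and 4 of 16 in dendritic-like cells, with 1 lower in the last. NK-like cells had 0 higher and 1 lower of 11, and monocyte/macrophage-like cells 2 higher and 5 lower of 16. The 2 higher and 4 lower of 17 in neutrophil-like cells were near the shares of all genes there, 8.4% and 26.9%. The list of genes induced by cell dissociation, made up of Socs3 and of genes from the AP-1 and heat-shock lists, had 4 of 8 higher in B-like and 1 of 6 higher in T-like cells, 0 higher and 1 lower of 4 in NK-like, 2 and 1 of 12 in neutrophil-like, 2 and 2 of 9 in monocyte/macrophage-like and 2 and 0 of 9 in dendritic-like cells. Its part in the Socs3 values was not tested. For the AP-1 and dissociation lists the shares of all genes called higher were 1.12% in B-like, 1.49% in T-like and 3.5% in NK-like cells. They were 12.9% in monocyte/macrophage-like and 8.84% in dendritic-like cells, where 10.9% and 6.67% were lower. In NK-like cells 6.05% were lower. Heat-shock proteins had 0 calls in the lymphoid lineages and 5 of 14 higher in monocyte/macrophage-like cells, with 1 of 15 higher in dendritic-like and 1 of 7 lower in neutrophil-like cells. Cytosolic ribosomal proteins had 24 of 70 lower in neutrophil-like cells, beside 26.9% of all genes, and 0 calls elsewhere, with a list median 0.42 below that of all genes (-0.42) in that lineage.

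Members of the TLR4 and TNF receptor pathway itself were mostly too low to measure, with 0 calls of 4 measured in B-like and 0 of 3 in T-like cells, 2 lower of 6 in NK-like cells, 2 higher of 11 in neutrophil-like and in monocyte/macrophage-like cells, and 2 higher and 1 lower of 10 in dendritic-like cells. Among all genes, 6.05% were lower in NK-like cells, and 8.4% and 12.9% higher in neutrophil-like and monocyte/macrophage-like cells. In dendritic-like cells 8.84% were higher and 6.67% lower. The receptor genes parted in dendritic-like cells, where Tnfrsf1a, which encodes TNFR1, went from 65.1 to 21.8 CPM and Tnfrsf1b, which encodes TNFR2, from 33.5 to 86.0 CPM. In NK-like cells Tnfrsf1b went from 68.4 to 32.3 CPM. Irak3, an inhibitor of Toll-like receptor signalling, went from 55.9 to 306 CPM in neutrophil-like cells.

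Chemokine genes had 0 measured members in B-like and T-like cells, 0 higher and 1 lower of 4 in NK-like, 2 higher and 1 lower of 3 in neutrophil-like, 3 higher and 1 lower of 5 in monocyte/macrophage-like and 2 of 2 higher in dendritic-like cells. In these 4 lineages 3.5%, 8.4%, 12.9% and 8.84% of all genes were called higher. Called lower were 6.05%, 26.9%, 10.9% and 6.67%. Cxcl2, a neutrophil attractant, went from 227 to 2843 CPM in neutrophil-like cells, while Ccl6 went from 2129 to 87.1 CPM there and from 769 to 123 CPM in monocyte/macrophage-like cells. Cell death and survival genes were called higher in 1 of 7 in B-like, 3 of 7 in T-like and 3 of 10 in NK-like cells, beside 1.12%, 1.49% and 3.5% of all genes. They were called higher in 5 of 13 in neutrophil-like and 6 of 14 in dendritic-like cells, beside 8.4% and 8.84%. Monocyte/macrophage-like cells had 3 higher and 2 lower of 15, beside 12.9% and 10.9% of all genes. Casp4, the caspase that senses cytosolic lipopolysaccharide, went from 23.4 to 89.6 CPM in NK-like and from 108 to 278 CPM in neutrophil-like cells.
Genes of lymphocyte homing and activation gave 1 higher and 1 lower of 13 in B-like, 0 of 9 in T-like and 1 higher and 1 lower of 7 in NK-like cells, with 0 and 2 of 5, 2 and 3 of 8 and 3 and 2 of 11 in the myeloid lineages. Among all genes, 1.12% and 0.397% were higher and lower in B-like and 3.5% and 6.05% in NK-like cells. The myeloid shares were 8.4% and 26.9%, 12.9% and 10.9%, and 8.84% and 6.67%. Cd69, an early activation antigen that retains lymphocytes, went from 110 to 223 CPM in B-like and from 25.4 to 113 CPM in NK-like cells. Itgb7, the β7 integrin, was lower in NK-like (186 to 64.5 CPM), monocyte/macrophage-like (121 to 42.1 CPM) and dendritic-like cells (185 to 15.4 CPM). Proteasome genes were called higher in 8 of 31 in monocyte/macrophage-like cells, beside 12.9% of all genes. In dendritic-like cells 2 of 31 were higher, beside 8.84%, and in neutrophil-like cells 1 of 14 was lower, beside 26.9%. Nuclear oxidative phosphorylation genes were lower in 12 of 48 in neutrophil-like cells, a share near the 26.9% of all genes, and in 1 of 74 in monocyte/macrophage-like cells. The cold-inducible genes Rbm3 and Cirbp gave 1 call, Rbm3 in monocyte/macrophage-like cells (364 to 746 CPM).

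**Figure D4:**
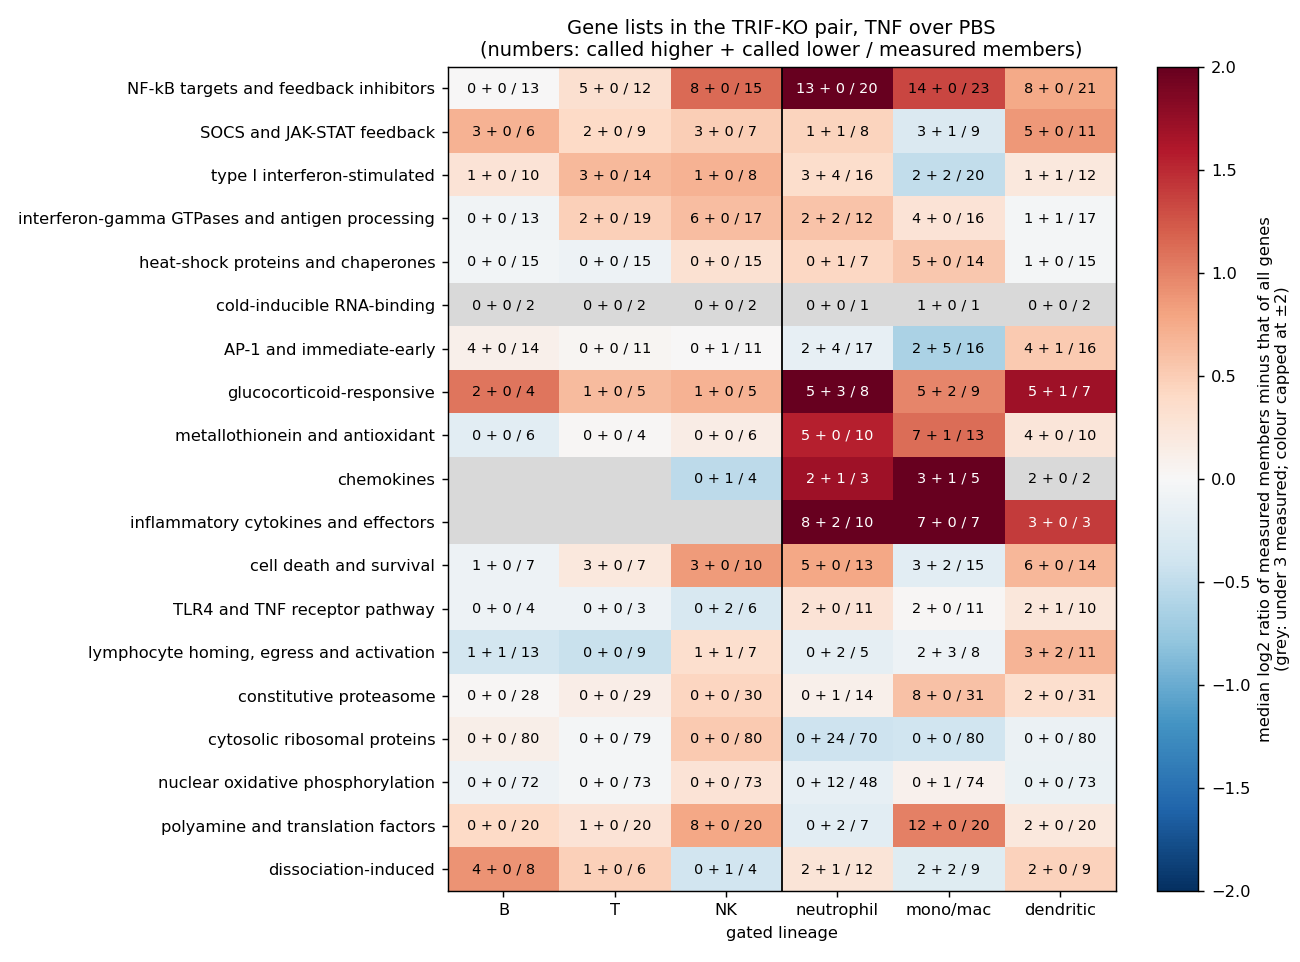
Gene lists (rows) by gated lineage (columns) in the TRIF-KO pair; colour is the median log2 ratio of the measured members minus that of all measured genes, capped at 2, and the numbers give members called higher, called lower and measured. The NF-κB list has calls in every lineage but B-like cells, and the inflammatory list is measured in myeloid lineages only.

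Genes called in a single lineage were the larger class. Measured in all 6 lineages, called in 1 and under 1.5-fold in the other 5 were 22 genes higher (1.89% of 1166) and 119 lower (10.2%), of which 107 (9.18%) were lower in neutrophil-like cells. The 22 were 11 in monocyte/macrophage-like cells (0.943%), 5 in dendritic-like (0.429%), 3 in neutrophil-like (0.257%) and 1 in each lymphoid lineage (0.0858%). Beside the neutrophil-like ones, 10 of the lower genes were in monocyte/macrophage-like cells (0.858%) and 1 each in NK-like and dendritic-like cells. With median-of-ratios scaling the class held 90 genes in place of 141. Called on the lymphoid side only were Ptpn22, a T-cell and B-cell receptor phosphatase, higher (0.0473% of 2115) and Flna, filamin A, lower (0.0473%). Called on the myeloid side only were 29 genes higher (1.37%) and 78 lower (3.69%).

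Most genes named for a call in a single lineage were measured in few lineages, and a gene too low to be measured elsewhere may still differ there. Elmo1, an engulfment and migration adaptor, was a clear case in B-like cells. It was at 81.0 CPM with PBS and 275 with TNF there, 3.40-fold (3.18 to 3.62), and between 75.2 and 184 CPM in every other lineage with either injection. Also called in B-like cells alone were Pik3ip1, an inhibitor of PI3-kinase (47.6 and 166 CPM), and Hs3st1, a heparan sulphate sulphotransferase (20.3 and 70.9 CPM). Fcer2a, which encodes CD23 of follicular B cells, was lower (412 and 158 CPM), as was Cd55, a complement regulator (325 and 130 CPM). Each was called the same way in wild-type B-like cells except Elmo1, at 142 and 237 CPM. Cr2, another follicular and marginal-zone marker, was at 492 and 337 CPM, and a shift in B-cell subsets was not tested.

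T-like cells alone had calls for Ly6a (Sca-1), Gzmb (granzyme B) and Tnfrsf4 (OX40). Ly6a was at 106 and 673 CPM in T-like cells, and at 352 and 481 CPM in B-like cells, below the 2-fold limit. Tnfrsf4 was at 16.2 and 79.3 CPM. Gzmb was at 3.05 and 56.4 CPM in T-like cells, while NK-like cells stood at 490 and 755 CPM, and 70 of the 711 T-like UMIs with TNF came from 1 barcode. Art2b, an ADP-ribosyltransferase (59.7 and 22.0 CPM), and Tent5a (95.1 and 37.3 CPM) were lower. All 5 were called the same way in wild-type T-like cells.

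NK-like cells alone had calls for Serpina3f, Il7r and Igtp, higher, and for Kcnj8 and S1pr5, lower. Serpina3f, a serine protease inhibitor, had 0 UMIs with PBS and 151 with TNF, at least 46.2-fold higher. Igtp, an interferon-inducible GTPase, was at 13.7 and 102 CPM. S1pr5, the sphingosine-phosphate receptor of NK-cell egress, was at 213 and 39.4 CPM, and Kcnj8, a potassium channel, at 93.7 and 8.96 CPM. The subset markers Itgam and Cd27 were at 223 and 52.0 CPM and at 115 and 69.9 CPM, and a shift in NK-cell subsets was not tested. Il7r, the interleukin-7 receptor, went from 7.81 to 160 CPM in NK-like and from 560 to 970 CPM in T-like cells. With clusters in place of gates its log2 ratio in NK-like cells dropped from 4.35 to 1.73.

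Neutrophil-like cells alone had calls for Thbs1 (thrombospondin 1), at 13.1 and 849 CPM. Lipg, endothelial lipase, and Prok2, prokineticin 2, each had 1 UMI with PBS, and 1322 and 773 UMIs with TNF, ratios of 159 (28.4 to 6266) and 92.7 (16.6 to 3666). Lower were Tspan13, a tetraspanin (269 and 10.6 CPM), and Itga4, the α4 integrin (453 and 26.0 CPM). Itga4 was level in B-like (192 and 196 CPM) and monocyte/macrophage-like cells (466 and 478 CPM). Clustering placed the neutrophil-like cells of the libraries apart, with 103 PBS and 0 TNF barcodes in one cluster and 4 and 395 in the other. The granule gene Ngp was detected in 9 of 100 gated barcodes with PBS and in 204 of 296 with TNF. A shift in neutrophil subsets was not tested.

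Monocyte/macrophage-like cells alone had calls for Mmp14, a membrane metalloproteinase, with 1 UMI with PBS and 788 with TNF, a ratio of 504 (90.3 to 19951). With each barcode weighted equally its log2 ratio went from 8.98 to 5.87. Mtus1 (64.1 and 2.11 CPM) and Hpgd, the prostaglandin-degrading dehydrogenase (386 and 29.5 CPM), were lower. All 3 were called the same way in wild-type. Hpgd was measured in this lineage only, and below the limit for a call it went from 20 to 0 UMIs in dendritic-like, 12 to 0 in B-like and 6 to 0 in T-like cells, at least 10.2-fold, 6.36-fold and 3.07-fold lower.
Mpo (1 and 421 UMIs, ratio 270 with an interval of 48.1 to 10671) and Elane (0 and 346 UMIs, at least 73.8-fold), both granule proteins of myeloid progenitors, rested on few cells. Without the top barcode the log2 ratios became 1.09 and 1.36. The make-up of this gate differed too. Of 3 monocyte/macrophage-like clusters, 1 held 114 PBS and 0 TNF barcodes, another 0 and 105, and the largest 139 and 275. Ccr2, the receptor of inflammatory monocytes, was at 1158 CPM with PBS and 196 with TNF, and C1qa, a macrophage complement gene, at 532 and 767 CPM. The part of these differences in the calls, those of the shared genes included, was not tested.

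Dendritic-like cells alone had calls for Ifitm1, an interferon-induced membrane protein (27.6 and 1634 CPM), and Ryr3, a calcium channel (7.89 and 141 CPM). Lower were Rab7b, a late-endosome GTPase (106 and 12.8 CPM), and Tifab (134 and 18.0 CPM). All 66 TNF UMIs of Olfr655, an olfactory receptor gene, came from 1 barcode, against 1 UMI with PBS, a ratio of 43.0 (7.45 to 1723). Xcr1, which marks the cross-presenting subset, was at 181 CPM with PBS and 32.1 with TNF, and Ccr7, the lymphoid homing receptor of mature dendritic cells, at 108 and 505 CPM. With 71 barcodes in each library, subset and level per cell cannot be told apart.

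Genes called one way in a lymphoid and the other way in a myeloid lineage numbered 18 with the lymphoid side higher (0.586% of 3072) and 22 with it lower (0.716%). Il4i1, a secreted amino acid oxidase, was at 109 and 35.3 CPM in B-like, 17.3 and 224 in monocyte/macrophage-like and 215 and 611 in dendritic-like cells, and both directions in B-like and monocyte/macrophage-like cells were called in wild-type as well. Fosb, an AP-1 subunit, was at 17.9 and 56.9 CPM in B-like and 85.4 and 20.9 CPM in neutrophil-like cells. Pdgfb, a growth factor, went from 141 to 43.0 CPM in NK-like and from 34.5 to 95.3 CPM in monocyte/macrophage-like cells. Ptpn12, a phosphatase, went from 95.7 to 21.5 and from 52.6 to 129 CPM in the same lineages.
The proliferation genes Top2a (topoisomerase II) and Hist1h1b (a linker histone) were lower in NK-like cells (139 to 10.8 CPM, and 164 to 25.1 CPM) and higher in monocyte/macrophage-like cells (5.75 to 119 CPM, and 14.8 to 96.3 CPM). Both were also called lower in dendritic-like cells, at log2 ratios of -1.29 and -1.12, which became 1.47 and 1.73 with clusters in place of gates. In NK-like cells clusters moved Top2a from -3.69 to -0.40 and Hist1h1b from -2.71 to 0.75. Of the 36 UMIs of Mki67, another proliferation gene, in NK-like cells with PBS, 28 came from 1 barcode. In monocyte/macrophage-like cells 1 barcode held 127 of the 227 Top2a UMIs and 102 of the 183 Hist1h1b UMIs with TNF.

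**Figure D5:**
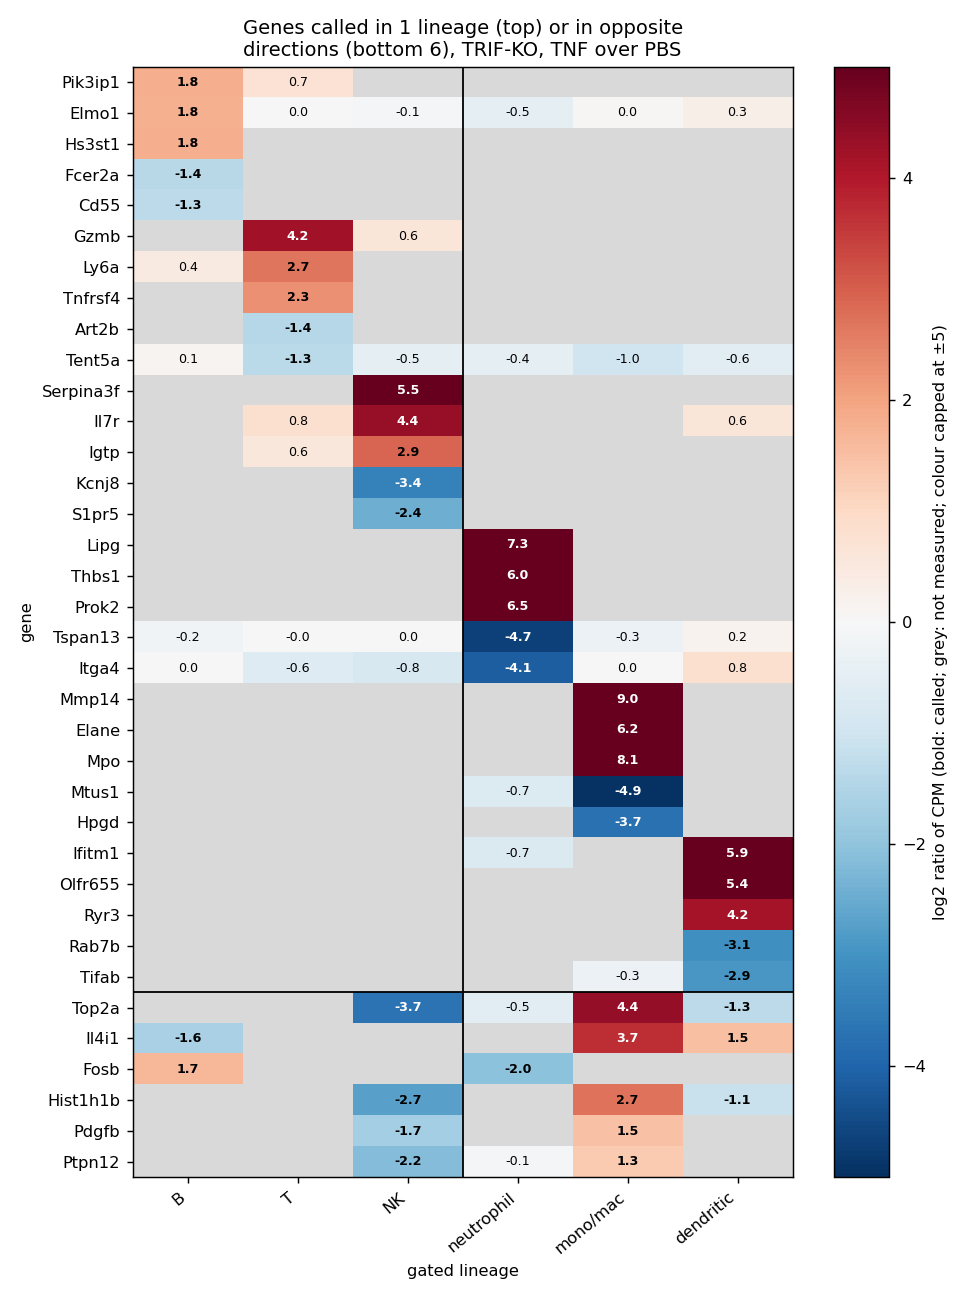
Log2 ratio of CPM, TNF over PBS, in the TRIF-KO pair for genes called in a single lineage (top) and genes called in opposite directions (bottom 6 rows); columns are gated lineages, grey is not measured, bold is called, and colour is capped at 5. Elmo1, Tent5a, Tspan13 and Itga4 were measured in all 6 lineages, whereas most others were measured in few.

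Between the genotypes, genes called in both pairs went the same way with few exceptions: 28 of 28 in B-like, 42 of 42 in T-like, 111 of 111 in NK-like, 490 of 498 in neutrophil-like and 517 of 523 in monocyte/macrophage-like cells. Uneven splits raise such counts. In neutrophil-like cells only 23.8% of all calls in TRIF-KO and 23.3% in wild-type were higher. Called higher in TRIF-KO and measured in wild-type, 20 of 30 genes in B-like and 32 of 36 in T-like cells were also called higher in wild-type. The same was so for 38 of 70 in NK-like, 123 of 189 in neutrophil-like and 243 of 403 in monocyte/macrophage-like cells. Of all genes in wild-type, 1.28%, 3.47%, 3.84%, 8.71% and 11.2% were called higher in these 5 lineages. For genes called lower in TRIF-KO the counts were 8 of 9, 10 of 15, 73 of 120, 367 of 526 and 274 of 325 in the same order. Of all genes in wild-type, 1.83%, 4.65%, 12%, 28.6% and 19% were called lower.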

How the data were processed

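Spleen cells of 4 groups of mice were profiled on the 10x Genomics droplet platform, 1 library per group, and the TRIF-KO PBS and TRIF-KO TNF libraries were compared, with the wild-type pair beside them. The authors deposited raw UMI counts, whole and not normalized, over 32285 features. Per the submitters' processing notes, Cell Ranger 3.0, Seurat 4.1.1 and mm10 were used, while the deposited matrix headers name cellranger 6.0.1; no source used here gives the annotation release. Libraries held 6508 and 8060 barcodes (TRIF-KO PBS and TNF), all with at least 500 UMIs, and kept barcodes held 31962858 and 65302861 UMIs.

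Groups came from the genotype and treatment labels. Barcodes were gated on detected markers of 11 classes, and those with markers of several classes (195 with PBS, 354 with TNF) or of none (261 and 398) entered no lineage. Doublets were otherwise kept, and removing the highest doublet scores was an alternative. Counts were summed per library and lineage and scaled to CPM with Python 3.11.15, NumPy 2.4.6, SciPy 1.17.1 and pandas 2.3.3; clusters were made with scanpy 1.11.5. Ratio intervals are exact conditional binomial, level intervals exact Poisson and shares exact Clopper-Pearson, all 95% and for counting error only. A ratio against 0 UMIs used a floor of 3 counts. Differences between pairs used a pseudocount of 0.5 and a normal approximation. The calling script was tested on simulated data with known changes.

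Named genes were the shared genes, up to 3 higher and 2 lower genes called in 1 lineage by the interval bound nearest to 1, the 6 opposite genes with the largest gap, up to 4 members per list by median size, and Ticam1. Genes named just outside the shared limit, subset markers, and Bcl6, Ptpn1, Tnfrsf1a, Tnfrsf1b, Txnip, Tsc22d3, Ddit4, Ptpn22 and Flna fell outside this rule and were chosen after their values were seen. The members and the gene lists were chosen with earlier results of these data known. Coordinates are those of GENCODE M21 on GRCm38, matched by gene ID. Alternatives covered scaling, thresholds, filters, clusters in place of gates, doublets, top barcodes, equal weights and thinned depth.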

Additional observations from a re-analysis of the deposited data

Results flagged for a closer look

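Genes called one way in the TRIF-KO pair and the opposite way in the wild-type pair numbered 8 in neutrophil-like and 6 in monocyte/macrophage-like cells, and 3 of them met the rule for named genes. The difference was not tested, since each group is 1 library. Oas2, an interferon-induced antiviral enzyme, had a log2 ratio of 1.52 in TRIF-KO neutrophil-like cells (19.7 CPM with PBS and 56.3 with TNF) and -2.17 in wild-type (72.3 CPM with PBS), and 6 UMIs lay behind the TRIF-KO PBS value. Top2a had 4.38 in TRIF-KO monocyte/macrophage-like cells and -2.47 in wild-type. Hist1h1b had 2.7 in TRIF-KO monocyte/macrophage-like cells and -4.2 in wild-type. A single TRIF-KO TNF barcode held 127 of 227 Top2a and 102 of 183 Hist1h1b UMIs, and without the barcodes that held at least 5 progenitor UMIs (Mpo, Elane, Prtn3) the TRIF-KO ratios were 3.08 and 1.68.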

How the results depend on the processing

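No paired analysis was possible because there was 1 library per group, and for the same reason no replicate could be left out. Counts are given in the order shared higher, shared lower, single lineage, opposite, then called genes in B-like, T-like, NK-like, neutrophil-like, monocyte/macrophage-like and dendritic-like cells and the whole spleen. As reported they were 6, 1, 141, 40, 42, 54, 314, 930, 840, 470 and 137. A minimum of 100 CPM and 100 UMIs gave 2, 0, 66, 18, 24, 25, 126, 551, 479, 217 and 80. A minimum of 10 UMIs with no CPM limit gave 12, 5, 470, 174, 474, 487, 826, 1705, 2194, 1121 and 1698. A 1.5-fold limit gave 16, 20, 440, 177, 189, 207, 789, 1441, 1621, 931 and 450, and a 3-fold limit 2, 0, 14, 8, 12, 11, 75, 388, 347, 153 and 45. By construction these limits change how many genes can pass. Median-of-ratios scaling gave 90 genes in a single lineage. Leaving mitochondrial, ribosomal, haemoglobin and immunoglobulin genes out of the total gave 89 in T-like cells and 224 in the whole spleen. At most 5% mitochondrial UMIs gave 3 shared lower and 239 in the whole spleen. Clusters in place of gates gave 3 shared lower and 23 opposite. Shared lower was 0 without the top barcode and with equal weights, and thinned depth gave 488 in neutrophil-like cells. Shared by at least 1 and 1 lineage gave 61 and 60, and by every lineage 1 and 0. Of the shared higher genes, Fkbp5 kept its place in each of these settings that made calls. Socs3 lost it at 100 CPM and with the free-RNA limit at 20%, Nfkbia at 3-fold, and Relb, Sdhaf1 and Tnfaip3 at both 100 CPM and 3-fold. Relb also lost it with the 20% limit and Tnfaip3 with at most 5% mitochondrial UMIs.

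Split by direction, median-of-ratios scaling gave 33 higher and 24 lower in T-like cells (37 and 17 as reported), and leaving out the abundant gene classes 162 and 134 in NK-like cells. The 166 values of named genes, followed through the alternatives, stayed in their reported interval 1540 times, left it in the same direction 113 times and reversed 5 times. Those that moved include Hspd1 in dendritic-like cells without the top barcode (1.17 to 0.24) and Il4i1 in monocyte/macrophage-like cells with equal weights (3.70 to 1.56). The values that reversed were 4: Mpo in monocyte/macrophage-like cells with clusters (-0.85), Top2a in dendritic-like cells with at most 5% mitochondrial UMIs (0.070) and with clusters (1.47), and Hist1h1b with clusters in NK-like (0.75) and dendritic-like cells (1.73). The cause was not tested. Chosen after seeing the data, leaving out barcodes with at least 5 UMIs of Mpo, Elane and Prtn3 gave 7 shared higher and 1 lower, with 396 higher and 378 lower in monocyte/macrophage-like cells, and leaving out barcodes over 1% haemoglobin gave 6 and 1. Depth limits neutrophil-like cells most, with 304385 summed UMIs with PBS, before dendritic-like (507224) and NK-like cells (512039).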
